A study of Mus musculus with 16 samples.

Results

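Mitochondrial ribosomal protein genes were followed across 16 mouse brain tumours, 7 carrying the histone mutant H3.3K27M and 9 carrying the unmutated histone, H3.3WT. The genes were taken by name, as the rows whose symbol begins with Mrpl or Mrps and a digit, with pseudogene symbols left out. The rule gave 78 genes of the 23355 in the deposited table, and 77 of them were among the 15007 genes with enough reads to test. Their transcripts were lower on the median in H3.3K27M tumours, by 0.25 on the log2 scale, no gene passed the adjusted threshold, and the median difference was near 0 once the trend of every library on transcript length was taken out.

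The tumours model diffuse midline glioma, a childhood brain cancer. RCAS, an avian virus, needs the receptor tv-a to enter a cell, and here the Nestin promoter of neural progenitors drove tv-a. H3.3K27M tumours were made in Nestin tv-a; p53 fl/fl mice on a C57BL/6 background by injecting viruses for PDGF-A, for H3.3K27M and for Cre on postnatal day 3, and the H3.3WT tumours in the same mice with the same agents except that the histone virus carried H3.3WT. Both groups therefore share PDGF-A expression, Cre and p53 loss, all tumours were collected at endpoint with no treatment, and ages at collection were not among the labels. The design text counts 5 tumours with and 3 without H3.3K27M, while the labels name 7 and 9. The table numbers its libraries 1 to 16 and averages 1 to 9 and 10 to 16, which were taken as the H3.3WT and the H3.3K27M group because the group sizes match in no other way. The headers do not say which numbered library is which labelled tumour, so every direction given here rests on that assignment. The table gives 1 total per gene, in which mutant and unmutated H3.3 transcripts are not separated.

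The mitochondrial ribosome makes the few proteins encoded in mitochondrial DNA, all of them parts of the respiratory chain and ATP synthase. Its RNA comes from the mitochondrial genome, whereas all its proteins are encoded in the nucleus, made on cytosolic ribosomes and imported. Many descend from bacterial ribosomal proteins and others are found only in mitochondria. The large subunit joins amino acids and the small subunit reads the messenger RNA. Inherited loss of several of these proteins causes combined respiratory chain disease in humans.

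Sequencing depth was 31636476 to 41730692 reads per H3.3K27M library and 30377560 to 40150969 per H3.3WT library, except library 8 (H3.3WT) with 11439144. Markers of oligodendrocyte progenitor cells, named in the study's title, were high in every library, with a mean log2 level of 15.7 ± 0.41 in H3.3K27M and 15.4 ± 0.44 in H3.3WT (SD, n = 7 and 9). Both scored haemoglobin genes averaged 8.19 ± 2.84 in H3.3K27M and 10.9 ± 3.52 in H3.3WT (exact permutation test, two-sided p = 0.12), and the endothelial markers 9.83 ± 0.48 in H3.3K27M and 10.4 ± 0.70 in H3.3WT (exact permutation p = 0.083). Neuron markers averaged 7.88 ± 1.48 in H3.3K27M and 8.45 ± 2.13 in H3.3WT (exact permutation p = 0.57), oligodendrocyte markers 9.18 ± 1.69 in H3.3K27M and 9.86 ± 2.20 in H3.3WT (exact permutation p = 0.51), and microglia markers 10.2 in both groups (exact permutation p = 0.96). These p-values are unadjusted, from 6 marker scores.

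Of the 77 genes, 70 had a lower mean log2 level in H3.3K27M than in H3.3WT tumours and 7 a higher one. Over all genes tested, 49.5% had a log2 fold change below 0. The members' median log2 fold change (H3.3K27M minus H3.3WT) was -0.25, against 0.0048 over all genes, and single members ranged from -0.63 for Mrps6 to 0.16 for Mrpl23, with a median standard error of 0.17. At an unadjusted p under 0.05 by limma, 17 members were lower and 0 higher, where 6.61% of all genes tested were lower and 8.7% higher. After Benjamini-Hochberg adjustment over all genes, 0 members and 0% of genes passed, and the smallest adjusted p among members was 0.26. With edgeR 0 members and 0% of genes passed, with 19 members lower at an unadjusted p under 0.05, as were 7.78% of all genes. With DESeq2 0 members passed, where 0.753% of genes did and 0.28% were called lower, and 21 members were lower at an unadjusted p under 0.05, as were 8.76% of all genes. In these bulk tumours, fewer cells that express the genes strongly and less RNA per cell cannot be told apart.

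**Figure D1:**
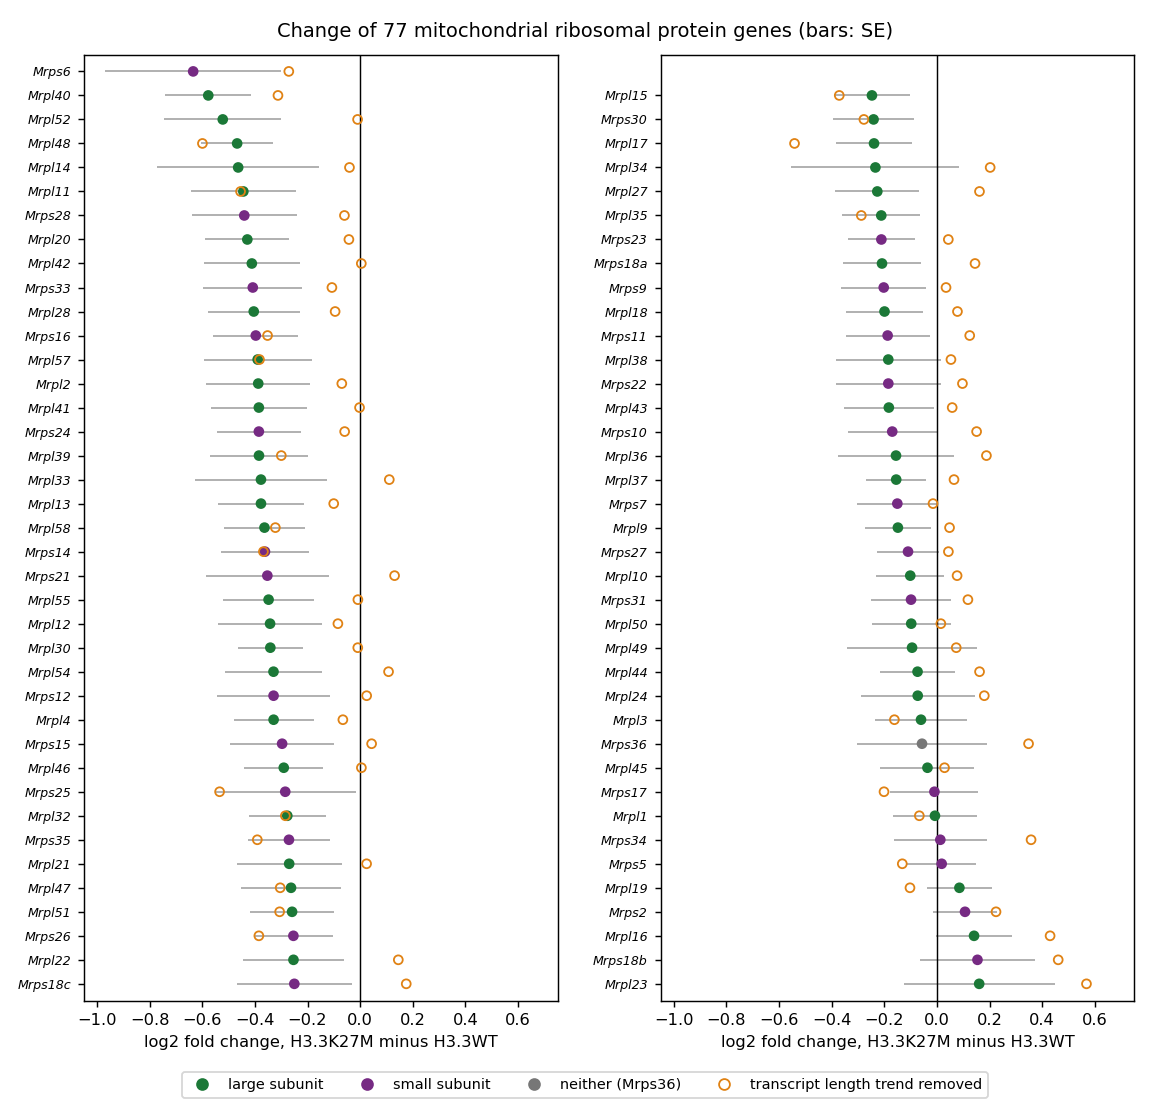
Log2 fold change of each of the 77 tested genes (filled points, H3.3K27M minus H3.3WT, bars give the standard error), ordered by size, coloured by ribosomal subunit, with open points for the same change after the trend of every library on transcript length was removed. Filled points lie left of 0 for 70 genes, open points for 39.

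The groups overlapped for all members. No member had every H3.3K27M library below every H3.3WT library, as did 0.00666% of all genes tested, and none had every H3.3K27M library above every H3.3WT library, as did 0.0267%. For 11 members all 7 H3.3K27M libraries lay below the H3.3WT median, where 5.84% of all genes tested did so: Mrpl40, Mrpl30, Mrpl20, Mrps16, Mrpl58, Mrpl28, Mrpl13, Mrpl11, Mrps33, Mrpl57 and Mrpl17. For 38 members at least 6 of the 7 did, as for 18.9% of all genes tested.

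Of the 50 large-subunit genes tested, 47 were lower in H3.3K27M tumours, with a median log2 fold change of -0.26. The small subunit gave 22 of 26 and a median of -0.23. Among large-subunit genes with a bacterial homologue 27 of 30 were lower (median -0.25), and of those classed as specific to mitochondria 20 of 20 (median -0.27). In the small subunit the counts were 14 of 16 with a bacterial homologue (median -0.27) and 8 of 10 classed as specific to mitochondria (median -0.20). The mitochondrial classes also hold Mrps18a and Mrps18b, which are relatives of bacterial S18, so they are not strictly proteins without bacterial relatives. Differences between these classes were not tested.

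The 2 smallest p-values belonged to proteins of the central protuberance, the crest of the large subunit in mammals. Mrpl40 (ENSMUSG00000022706, chr16:18872018-18876862, minus strand, mm10) had 560 to 1155 normalized counts in the H3.3K27M libraries, with a median of 968, and 1053 to 1611 in the H3.3WT libraries, with a median of 1332. Only 1 H3.3K27M library, number 10, reached above the lowest H3.3WT value, and the lowest values were those of libraries 14 and 15. The group means were 888 ± 220 in H3.3K27M and 1297 ± 189 in H3.3WT (SD, n = 7 and 9), a log2 fold change of -0.58 ± 0.16 (SE; adjusted p = 0.26, limma). Mrpl48 (ENSMUSG00000030706, chr7:100545751-100608301, minus strand) had 936 to 1699 normalized counts in H3.3K27M, with a median of 1106, and 1270 to 1875 in H3.3WT, with a median of 1673. Of the H3.3K27M libraries, 6 lay below the H3.3WT median and library 12 above it. Its log2 fold change was -0.47 ± 0.14 (adjusted p = 0.26, limma). In the authors' deposited table these were the 2 members with an adjusted p under 0.05, at 0.043 for Mrpl40 (log2 fold change -0.52) and 0.0499 for Mrpl48 (-0.43), where 1.41% of the genes with an adjusted p were called in either direction and 0.595% lower.

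Mrpl58, a peptidyl-tRNA hydrolase built into the same protuberance, had 1103 to 1715 normalized counts in H3.3K27M (median 1364) and 1360 to 2671 in H3.3WT (median 1723). All 7 H3.3K27M libraries lay below the H3.3WT median, and the log2 fold change was -0.36 ± 0.15 (adjusted p = 0.29, limma). The log2 fold changes of Mrpl46 and Mrpl38, which also sit there, were -0.29 and -0.19, and 0.0047 and 0.054 with the transcript length trend removed. These 5 genes were grouped after their values were seen. They are not the full set of proteins of the protuberance, and the protuberance as a whole was not tested.

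**Figure D2:**
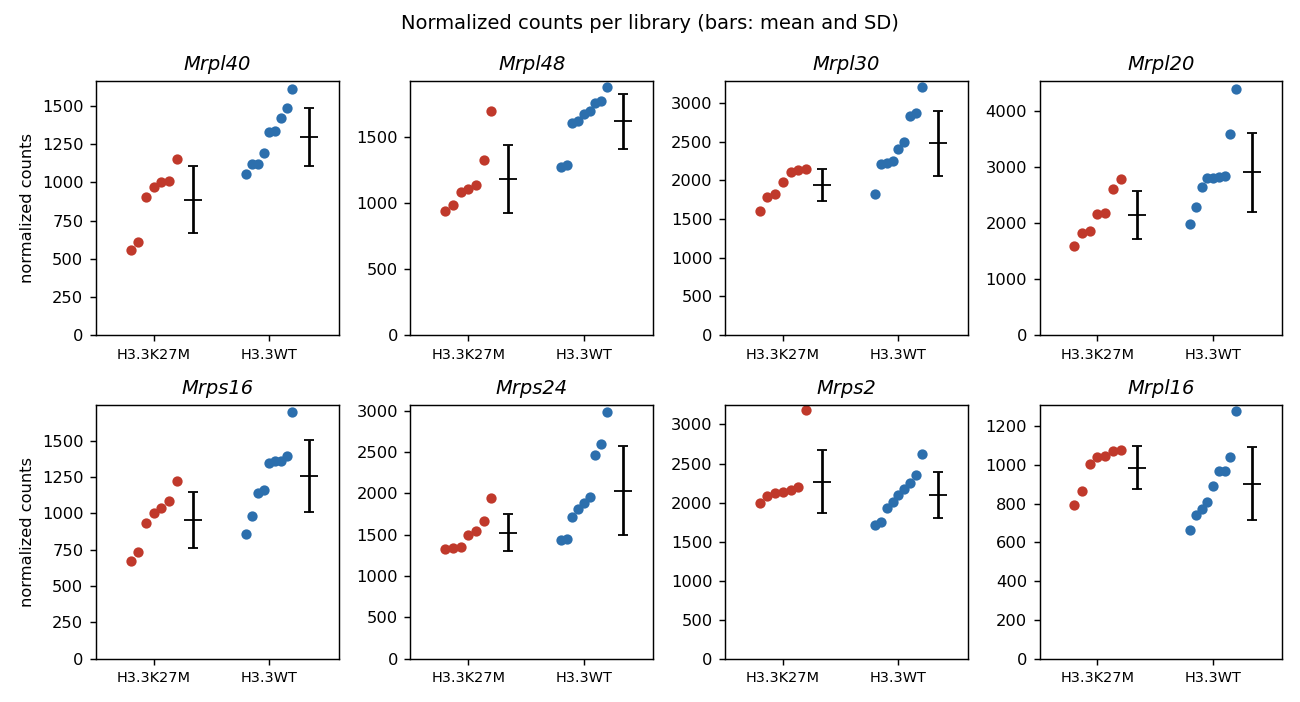
Normalized counts (linear axis from 0) of 8 genes in each H3.3K27M library (red) and each H3.3WT library (blue), sorted within the group, with the mean and SD. The groups overlap in every panel; Mrps2 and Mrpl16 are shown as members with a higher mean in H3.3K27M, and in Mrps2 library 16 stands above the other H3.3K27M libraries.

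Other large-subunit genes with small p-values were homologues of bacterial proteins that bind ribosomal RNA. Mrpl30 had 1609 to 2145 normalized counts in H3.3K27M (median 1986) and 1831 to 3206 in H3.3WT (median 2411), a log2 fold change of -0.34 ± 0.12. Mrpl20 had 1592 to 2787 in H3.3K27M (median 2161) and 1993 to 4401 in H3.3WT (median 2800), a log2 fold change of -0.43 ± 0.16. In both genes every H3.3K27M library lay below the H3.3WT median (adjusted p = 0.26 and 0.27, limma). Mrpl28 had 1873 to 2630 in H3.3K27M (median 2272) and 1958 to 6058 in H3.3WT (median 2961), and its top value came from library 8. Mrpl13 had 1678 to 2568 in H3.3K27M (median 1987) and 1811 to 4146 in H3.3WT (median 2600). Their log2 fold changes were -0.40 ± 0.17 and -0.38 ± 0.16 (adjusted p = 0.29 and 0.30, limma). Mrpl52, which is specific to mitochondria, had 1433 to 2672 in H3.3K27M (median 1693) and 1671 to 4870 in H3.3WT (median 2539), with 6 of 7 H3.3K27M libraries below the H3.3WT median and a log2 fold change of -0.52 ± 0.22 (adjusted p = 0.29, limma).

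In the small subunit, Mrps16, whose loss causes mitochondrial disease in humans, had 674 to 1223 normalized counts in H3.3K27M (median 1001) and 861 to 1696 in H3.3WT (median 1346). All 7 H3.3K27M libraries lay below the H3.3WT median (log2 fold change -0.40 ± 0.16, adjusted p = 0.27, limma). Mrps24, the counterpart of bacterial S3 at the entry of the messenger RNA, had 1324 to 1943 in H3.3K27M (median 1496) and 1441 to 2989 in H3.3WT (median 1887), with a log2 fold change of -0.38 ± 0.16 (adjusted p = 0.28, limma). Mrps6 had the lowest log2 fold change of all members, -0.63, with a standard error of 0.33. Its values ran from 426 to 1235 in H3.3K27M and from 581 to 2886 in H3.3WT.

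Proteins with known roles in single steps of translation gave a range of values. Mrpl12 and Mrpl10 form the stalk that recruits elongation factors, and Mrpl11 lies at its base. Mrpl11 averaged 1356 ± 239 normalized counts in H3.3K27M and 1929 ± 761 in H3.3WT, Mrpl12 averaged 1508 ± 433 in H3.3K27M and 1938 ± 668 in H3.3WT, and Mrpl10 averaged 1529 ± 369 in H3.3K27M and 1608 ± 117 in H3.3WT. The log2 fold changes were -0.44 ± 0.20, -0.34 ± 0.20 and -0.10 ± 0.13, so the difference for Mrpl10 was smaller than its error. Mrpl2 and Mrpl3, which reach toward the site where amino acids are joined, had log2 fold changes of -0.39 ± 0.20 and -0.060 ± 0.175. Mrps12, part of the decoding site, gave -0.33 ± 0.22, and Mrps5, near the entry of the messenger RNA, 0.018 ± 0.132. None of these had an adjusted p under 0.30 (limma).

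At the exit of the nascent chain, Mrpl45, which ties the ribosome to the inner membrane, averaged 1753 ± 454 normalized counts in H3.3K27M and 1803 ± 439 in H3.3WT. Mrpl44, next to the exit, averaged 919 ± 114 in H3.3K27M and 976 ± 192 in H3.3WT. Their log2 fold changes, -0.036 ± 0.178 and -0.073 ± 0.144, were within their errors. Mrpl23, also at the exit, had 79.0 ± 25.1 in H3.3K27M and 70.2 ± 20.01 in H3.3WT, but 76.4% of its 50-base stretches also occur in other genes, most often the pseudogene Mrpl23-ps1, so its reads are counted in part at best. Mrps18b and Mrps34, 2 other members with a fold change above 0 (that of Mrps34 was at -0.002 with upper quartile scaling), share 63.7% and 52.4% of their 50-base stretches with other genes. In all, 16 tested members share over 20%, among them Mrpl13 with 23.9% and Mrps6 with 32.3%, and their values are uncertain to that extent.

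The 3 relatives of bacterial S18 lie in different places, Mrps18a in the large subunit, and Mrps18b and Mrps18c in the small one. Mrps18a averaged 1756 ± 386 normalized counts in H3.3K27M and 2026 ± 446 in H3.3WT. Mrps18c averaged 768 ± 219 in H3.3K27M and 934 ± 351 in H3.3WT, and Mrps18b averaged 353 ± 76 in H3.3K27M and 324 ± 113 in H3.3WT. Their log2 fold changes were -0.21 ± 0.15, -0.25 ± 0.22 and 0.15 ± 0.22, and none had an adjusted p under 0.50 (limma). Mrps22 and Mrps28, both linked to human disease, gave -0.18 ± 0.20 and -0.44 ± 0.20 (adjusted p = 0.68 and 0.31, limma), and Mrps30, which despite its name belongs to the large subunit, -0.24 ± 0.15 (adjusted p = 0.45, limma). Mrps36 is now known as a part of the oxoglutarate dehydrogenase complex rather than of the ribosome; it averaged 53.3 ± 14.4 in H3.3K27M and 54.5 ± 8.7 in H3.3WT.

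Levels were compared between genes per kilobase of the principal transcript, over all 16 libraries. The members' median was 901 normalized counts per kb, against 317 over all genes tested, and 67 of 77 members lay above the median of all genes. Mrpl52 was highest with 5638 per kb, followed by Mrpl33 with 3610 and Mrpl20 with 3373. Their principal transcripts have 418, 478 and 764 bases, while their merged annotated exons cover 1109, 7326 and 1664 bases. Levels and ranks per kb therefore depend on the length used, most of all for Mrpl33. The plan named kb of exon, and values by merged exon length are not given. The lowest were Mrps36 with 76.97, Mrpl23 with 107, Mrps25 with 198 and Mrpl19 with 201. All 4 share over 30% of their 50-base stretches with other genes. Mrpl53, whose stretches are all shared with an overlapping gene, had 2.51 ± 1.95 normalized counts in H3.3K27M and 3.72 ± 3.03 in H3.3WT and was not tested. Among the 42 tested members with at most 5% shared stretches, 40 were lower in H3.3K27M, with a median log2 fold change of -0.27. The members varied little, with a median SD over the 16 libraries of 0.35 on the log2 scale, against 0.48 over all genes.

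Promoters of 4 genes are shown from the RefSeq sequences for GRCm38.p6, on the strand of the gene and ending at its RefSeq start. They are given for Mrpl48 and Mrpl58, of the central protuberance, for Mrpl52, the member with the highest level per kb, and for Mrpl30, which starts back to back with the gene Mitd1. Capitals mark motifs of nuclear factors known to act on genes for mitochondrial proteins, as described after the sequences.
Mrpl48, chr7:100583131-100583380, minus strand: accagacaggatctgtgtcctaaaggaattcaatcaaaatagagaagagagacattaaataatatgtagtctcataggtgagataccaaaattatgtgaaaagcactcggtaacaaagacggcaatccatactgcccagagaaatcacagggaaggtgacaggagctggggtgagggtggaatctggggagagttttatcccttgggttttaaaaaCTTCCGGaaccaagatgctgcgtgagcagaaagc
Mrpl58, chr11:115403502-115403751, plus strand: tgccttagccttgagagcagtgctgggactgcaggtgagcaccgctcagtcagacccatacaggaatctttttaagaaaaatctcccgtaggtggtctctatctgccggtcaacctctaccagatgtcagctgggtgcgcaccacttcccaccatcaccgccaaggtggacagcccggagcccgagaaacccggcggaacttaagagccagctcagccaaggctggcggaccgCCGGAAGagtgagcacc
Mrpl52, chr14:54426659-54426908, plus strand: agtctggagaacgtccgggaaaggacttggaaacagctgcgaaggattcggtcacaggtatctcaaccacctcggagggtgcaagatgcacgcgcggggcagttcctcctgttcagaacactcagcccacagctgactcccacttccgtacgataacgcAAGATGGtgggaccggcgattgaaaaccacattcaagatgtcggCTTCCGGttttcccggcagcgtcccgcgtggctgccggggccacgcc
Mrpl30, chr1:37890412-37890476, plus strand: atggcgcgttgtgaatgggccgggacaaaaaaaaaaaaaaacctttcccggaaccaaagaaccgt

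The motifs searched, on both strands, were CCGGAAG for ETS factors such as GABP, AAGATGG for YY1, and GCGCATGCGC for NRF1, of which the ETS and YY1 letters can share AAG. The window ran from 250 bases before to 50 bases after the start. The ETS letters lie 27 bases before the start of Mrpl48 on the reverse strand, 10 bases before that of Mrpl58 on the forward strand, and 40 bases before that of Mrpl52 on the reverse strand, where the YY1 letters lie 84 bases before the start on the forward strand. The RefSeq start of Mrpl48 used here adjoins the end of the gene in the deposited coordinates, 100583130. The GENCODE gene, on the minus strand, runs to 100608301, so its outermost start is a different one. The stretch shown for Mrpl30 holds none of them in this form. Stretches free of annotated exons before the starts of Mrpl20, Mrps16, Mrps24, Mrpl28 and Mrpl16, not printed here, held none either. That of Mrps16 was only 106 bases long and ended 144 bases before the start. Over the full window of any RefSeq promoter of the gene, Mrps16 held the ETS letters and Mrps24 the YY1 letters. Both are counted below. The printed promoters are not typical of the members in their motifs. Of the 69 members with a RefSeq promoter, 26 (37.7%) held the ETS letters, against 17.8% of the tested genes with a promoter. YY1 letters were in 13 (18.8%, against 7.82%) and NRF1 letters in 3 (4.35%, against 2.09%). In 37 members (53.6%, against 25.5%) at least 1 of the 3 was present, and in 0 members did the ETS and YY1 letters overlap. These are matches of letters, not shown to be bound. The median log2 fold change was -0.25 for tested members with the ETS letters and -0.21 for those without. For YY1 the medians were -0.21 with and -0.25 without, and for NRF1 -0.28 with and -0.24 without. With the transcript length trend removed they were 0.044 and -0.0086 for ETS, 0.025 and -0.0023 for YY1, and -0.28 and 0.0047 for NRF1. These differences were not tested.

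**Figure D3:**
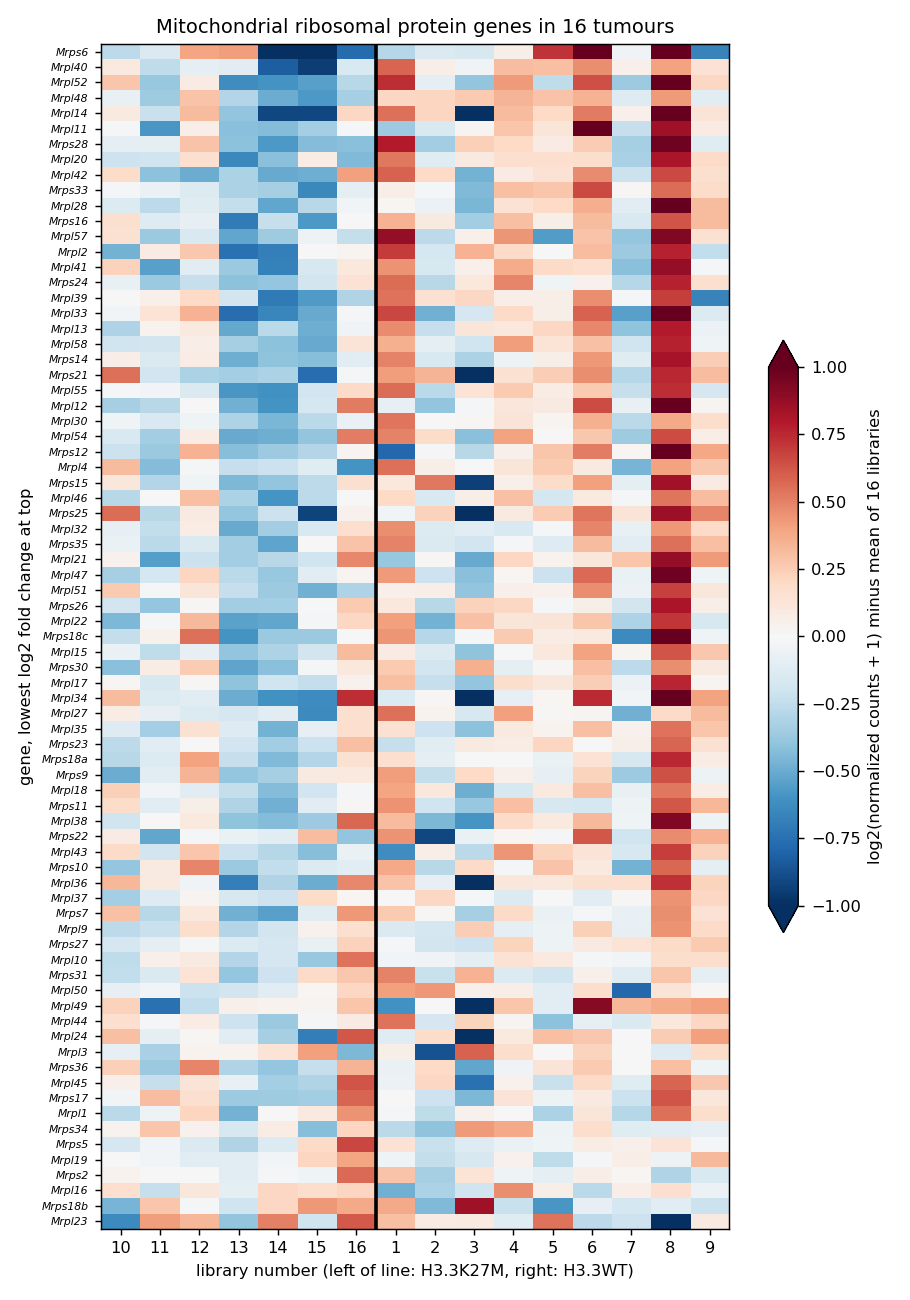
Deviation of each member (rows, lowest log2 fold change at the top) from its own mean over 16 libraries, as log2 of normalized counts plus 1, with the H3.3K27M libraries left of the black line and the H3.3WT libraries right of it. Library 8 is above the mean in nearly every row, libraries 13, 14 and 15 are below it in most rows, and library 16 is above it in most of the lower rows.

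The members moved together within a library, and the groups were not uniform. They took 0.298 ± 0.0447% of all reads in H3.3K27M libraries, with a range of 0.239 to 0.351%, and 0.358 ± 0.0778% in H3.3WT libraries, with a range of 0.274 to 0.520% (SD, n = 7 and 9). Counting the genes above their own median over the 16 libraries, H3.3K27M libraries 13, 14, 15 and 11 had 3, 6, 14 and 15 of 77, and libraries 10, 12 and 16 had 33, 49 and 55. H3.3WT libraries 6 and 8 had 71 each, libraries 4, 1, 9 and 5 had 62, 57, 56 and 45, and libraries 3, 2 and 7 had 31, 27 and 21. Without library 8, the shallowest, the median log2 fold change of the members was -0.17, and without libraries 6 and 8 it was -0.14, with 65 members lower, as were 49.4% of all genes, and 4 lower at an unadjusted p under 0.05, as were 3.72% of all genes. Without library 14 or 15 that count was 5, where 4.4% and 4.9% of all genes were lower. With the blood marker score as a covariate it was 8, where 3.6% of all genes were. Leaving out library 1, 4, 6, 8 or 13 alone also moved it by over 1.5 times, to 9, 11, 7, 7 and 6, and the share of all genes to 6.04, 5.91, 5.33, 5.12 and 5.45%.

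The members are short genes, and in these data short genes as a whole were lower in H3.3K27M. The principal transcripts of the members had a median length of 1316 bases, from 418 for Mrpl52 to 7300 for Mrpl17, against 3021 over all genes tested, and 61 members lay under that value. The slope of all genes' log2 levels on log2 transcript length averaged 0.114 ± 0.126 in H3.3K27M libraries and -0.0886 ± 0.151 in H3.3WT libraries (SD, n = 7 and 9; exact permutation test, two-sided p = 0.012). A group difference in the slope on exon length was already known from earlier results of these data. The p-value therefore describes the difference and is not an independent test of it. Genes were then put into 5 classes of equal size by length. In the class with the shortest transcripts, up to 1713 bases, 82.2% of all genes were lower in H3.3K27M and their median log2 fold change was -0.29. The 49 members in that class had a median of -0.25, and 45 were lower. In the second class, up to 2571 bases, 6 of 7 members were lower, with a median of -0.097, where 66.1% of all genes were lower, with a median of -0.12.

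**Figure D4:**
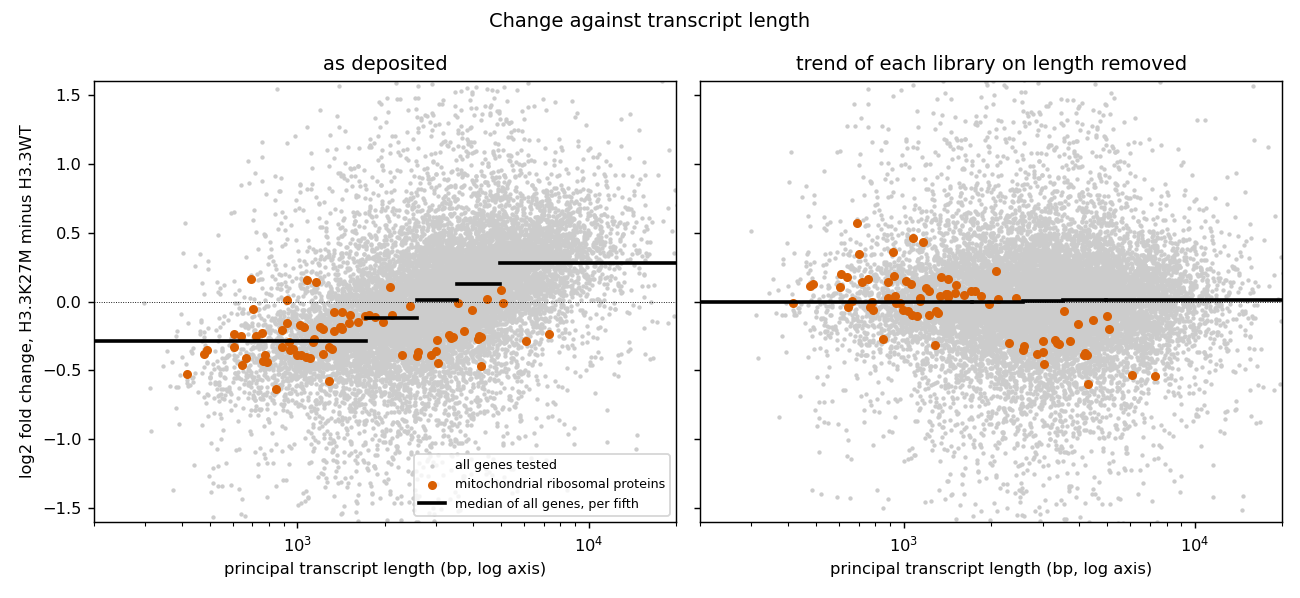
Log2 fold change (H3.3K27M minus H3.3WT, linear axis) against principal transcript length (log axis) for all genes tested (grey) and the members (orange), with the median of all genes in each of 5 length classes (black lines), before (left) and after (right) removal of the trend of every library. On the left the black lines climb from -0.29 to 0.28 and the short members lie around them, while members over 2571 bases lie below them in both panels; 2 genes without a length, and points beyond the axes, are not drawn.

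With the trend of every library on transcript length removed, 39 members were lower and 38 higher in H3.3K27M, and their median log2 fold change was -0.0023. At an unadjusted p under 0.05 (limma) 10 were then lower and 1 higher, where 4.11% of all genes were lower and 4.42% higher, and the smallest adjusted p was 0.57. The result differed by annotated transcript length within the list. The 39 shorter members had a median of -0.33 before and 0.025 after removal, and the 38 longer ones -0.19 before and -0.15 after. In the middle class, 2571 to 3521 bases, all 9 members were lower before removal, with a median of -0.36, where 48.3% of all genes were lower, with a median of 0.012. In the next longer class 7 of 8 members were lower, with a median of -0.23, where 32.6% of all genes were lower, with a median of 0.13. In the longest class 3 of 4 members were lower, with a median of -0.12, where 18.3% of all genes were lower, with a median of 0.28. After removal the members' medians were 0.054 and 0.029 in the 2 shorter classes, and -0.32, -0.33 and -0.37 in these 3. The difference between shorter and longer members was not tested. The lengths of some longer members are uncertain, since their principal transcript exceeds the gene's whole span in the deposited coordinates. Mrps26, at 4278 bases, spans chr2:130563756-130565394 there, and Mrps17, at 5061 bases, chr5:129715527-129718691. The same holds in the middle class for Mrpl57, Mrpl32, Mrpl51 and Mrps16. Mrps16, at 2572 bases, lies at the lower limit of that class and spans chr14:20391230-20393555 in the deposited coordinates. A length set too high would put a member in too long a class and lower its value after removal. Whether it did so here was not tested.

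Mrpl48 had the smallest p of the members after removal, with a log2 fold change of -0.60 ± 0.16, against -0.47 before it. Its principal transcript is 4285 bases long. Mrpl40, at 1280 bases, had -0.31 ± 0.13 after removal, Mrps16, at 2572 bases, -0.35 ± 0.15, Mrpl58, at 2596 bases, -0.32 ± 0.15, and Mrpl11, at 3045 bases, -0.45 ± 0.20. The length of Mrps16 is among the uncertain ones. Mrpl30, Mrpl20 and Mrpl52, with transcripts under 1000 bases, had -0.0090, -0.043 and -0.010. Mrpl16, an RNA-binding protein of the large subunit with a transcript of 1162 bases, was the member higher after removal, at 0.43 ± 0.16, against 0.14 ± 0.15 before. It had 791 to 1074 normalized counts in H3.3K27M (median 1041) and 665 to 1279 in H3.3WT (median 889). None of these had an adjusted p under 0.56 after removal (limma). Which length a gene has depends on the annotation, and with the merged length of all annotated exons the median after removal was -0.047, with 46 members lower where 49.7% of all genes were. At an unadjusted p under 0.05, 8 were then lower, against 4.76% of all genes, and 0 higher, against 5.11%. With coding length removed instead, the median was -0.043, with 46 members lower. At an unadjusted p under 0.05 (limma) 2 were then lower, against 3.92% of all genes.

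**Figure D5:**
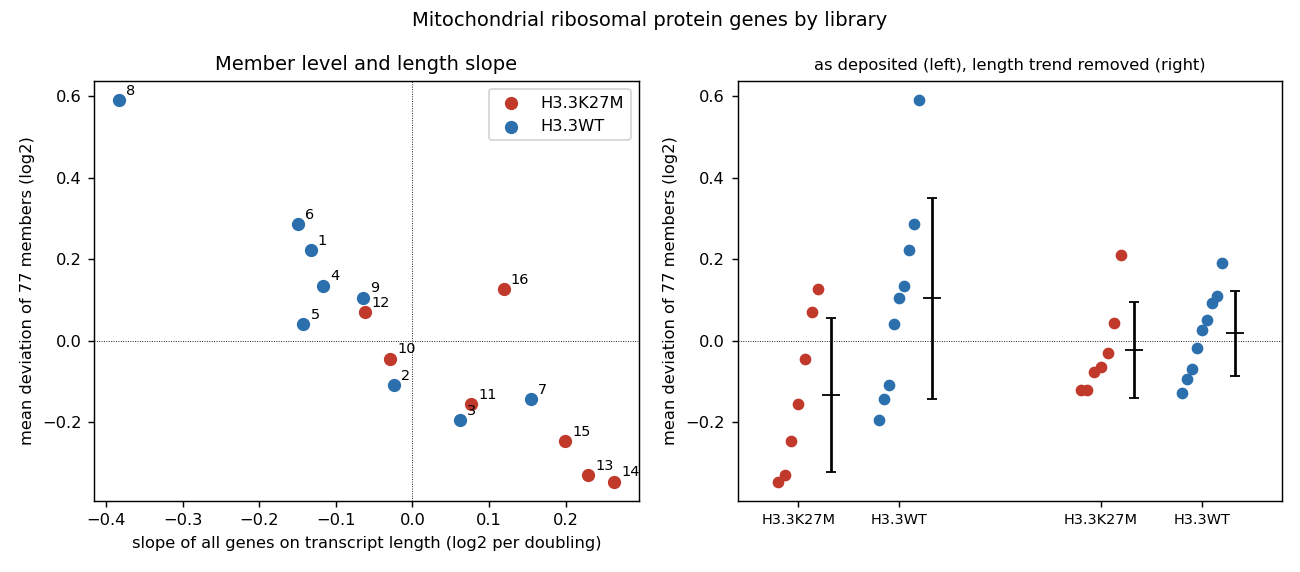
Left, mean deviation of the 77 members from their means (log2) against the slope of all genes on transcript length in each library, with H3.3K27M in red, H3.3WT in blue and library numbers beside the points; right, the same deviation by group before and after removal of the length trend, with the mean and SD. Library 8 has the lowest slope and the highest member level, libraries 13 and 14 have the highest slopes and the lowest levels, and the group means lie closer together after removal.

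The mean deviation of the members from their overall means was -0.13 ± 0.19 in H3.3K27M libraries and 0.10 ± 0.25 in H3.3WT libraries. With the length trend removed it was -0.023 ± 0.118 in H3.3K27M and 0.018 ± 0.105 in H3.3WT. Library 8 had the lowest slope, -0.38, and the highest member deviation, 0.59 before and 0.19 after removal. Libraries 13 and 14 had slopes of 0.23 and 0.26 and deviations of -0.33 and -0.35 before, and -0.12 each after removal. Library 16 stood apart, with a slope of 0.12 and a deviation of 0.13 before and 0.21 after. The part of RNA quality, library preparation and cell makeup in these slopes was not tested.

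Lists of genes whose products work with the mitochondrial ribosome had medians near or above 0. Of 13 mitochondrial translation factors, 9 had a log2 fold change above 0, with a median of 0.072, and 1 was higher at an unadjusted p under 0.05, the elongation factor Guf1 (2464 ± 559 normalized counts in H3.3K27M and 1797 ± 280 in H3.3WT, log2 fold change 0.44 ± 0.15, adjusted p = 0.26, limma). The next smallest p was that of Mtif2, an initiation factor, at 0.24 ± 0.14. Of 23 assembly factors 12 were above 0, with a median of 0.0044; the smallest p-values were those of Malsu1, which keeps the subunits apart until they are mature, at -0.42 ± 0.19, and of the GTPase Noa1 at 0.31 ± 0.16. Of 20 mitochondrial aminoacyl-tRNA synthetases 13 were above 0, with a median of 0.086. Mars2 gave 0.63 ± 0.20 and Lars2 -1.32 ± 0.62, with 9907 ± 4030 normalized counts in H3.3K27M and 66730 ± 143500 in H3.3WT. The SD of Lars2 in H3.3WT exceeds its mean, so that mean rests on high values in few libraries. Of 14 factors of mitochondrial DNA and RNA 7 were above 0, with a median of -0.0034, among them the polymerase Polg at 0.43 ± 0.25, while Hsd17b10, a subunit of mitochondrial RNase P, gave -0.41 ± 0.14. Of 10 transcription factors and coactivators that act on nuclear genes for mitochondrial proteins 9 were above 0, with a median of 0.21, among them Pprc1 at 0.47 ± 0.19 and Ppargc1a at 0.76 ± 0.36. The principal transcripts of these 5 lists had median lengths of 1894 to 3204 bases. With the length trend removed, 11 of 13 translation factors were above 0 (median 0.10), 17 of 23 assembly factors (0.075), 14 of 20 synthetases (0.13), 8 of 14 factors of mitochondrial DNA and RNA (0.033) and 8 of 10 transcription factors and coactivators (0.22).

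Of 5 mitoribosomal proteins with other symbols 4 were lower; their median change was -0.22 (log2) and their median transcript 2494 bases. After removal of the length trend 3 were lower and the median was -0.16. Aurkaip1, of the small subunit, gave -0.60 ± 0.16 and Ptcd3, also of the small subunit, 0.34 ± 0.16 before removal. The 3 lists with the shortest transcripts, taken by patterns in the gene symbol, also had medians below 0. Such patterns take in genes that need not be subunits, such as Rps19bp1, Ndufa4l2 and Atp5s, and Ndufa13 entered more than once. Of 85 genes listed for cytosolic ribosomal proteins 82 were lower in H3.3K27M, with a median of -0.36, which was -0.062 with the transcript length trend removed. Of 38 genes listed for complex I, the first enzyme of the respiratory chain, 37 were lower, with a median of -0.49 before and -0.10 after removal. At an unadjusted p under 0.05 (limma), 27 were lower before removal, where 6.61% of all genes were. After removal 7 were, where 4.11% of all genes were. Ndufa11 averaged 1788 ± 329 normalized counts in H3.3K27M and 2875 ± 693 in H3.3WT, and Ndufv2 averaged 5377 ± 720 in H3.3K27M and 8094 ± 1953 in H3.3WT. Of 46 genes listed for complexes II to V, 40 were lower, with a median of -0.41 before and -0.032 after removal. At an unadjusted p under 0.05 (limma), 22 were lower before removal, again beside 6.61% of all genes. After removal 2 were lower and 3 higher, where 4.11% and 4.42% of all genes were. Cox7a2 gave -0.57 ± 0.17 and Uqcr10 -0.56 ± 0.17 before removal. The median transcripts of these 3 lists were 787 to 892 bases. No gene of any of these lists passed the adjusted threshold (limma).

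Of the members, 18 start within 1000 bases of a tested gene on the other strand, back to back. Of these members 15 were lower in H3.3K27M, with a median log2 fold change of -0.25. Of their 18 neighbours 8 were lower, with a median of 0.092, and a median transcript length of 2419 bases. With the transcript length trend removed 7 neighbours were lower, with a median of 0.16. The members of these pairs then ran from -0.38 for Mrpl57 to 0.46 for Mrps18b. Differences between members and neighbours were not tested. Mrpl40 starts 175 bases from Hira, which encodes a chaperone that places H3.3 on DNA. Hira averaged 844 ± 240 normalized counts in H3.3K27M and 1200 ± 278 in H3.3WT, a log2 fold change of -0.53 ± 0.19 (adjusted p = 0.26, limma), and of -0.65 with the transcript length trend removed. Mrps18b starts 45 bases from Ppp1r10, a regulatory subunit of a nuclear phosphatase, which averaged 2777 ± 665 in H3.3K27M and 1904 ± 685 in H3.3WT, a log2 fold change of 0.59 ± 0.23 (adjusted p = 0.27, limma). Mitd1, which starts 66 bases from Mrpl30, averaged 487 ± 112 in H3.3K27M and 494 ± 93 in H3.3WT. Whether the counting used strand is not given in the sources used here, so reads of overlapping genes on the 2 strands cannot be told apart.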

How the data were processed

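Per the labels' protocols, tumour RNA (Qiagen RNeasy) went into TruSeq mRNA libraries that were read on an Illumina HiSeq as single 50-base reads. STAR 2.7, HTSeq and DESeq2 were used with mm10, per the submitters' processing notes. The deposited table holds for each of 16 libraries a signal per gene, called normalized counts here. From the values it is a read count divided by 1 factor per library, since 100% of values are whole multiples of the library's smallest value within 0.01 reads. The authors' deposited columns also give a log2 fold change with its error, a p-value, an adjusted p-value and a Wald score. Repeated Ensembl IDs were kept once, which removed 208 of 23563 lines. A count of 0 allows up to 3 reads, or 2.42 to 8.52 normalized counts by library; such limits cover counting error only.

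limma 3.58.1 with a mean-variance trend was run on log2(value + 1) for the genes that reached 10 normalized counts in 7 or more libraries; p-values were adjusted by Benjamini-Hochberg over all of them, with a threshold of 0.05. Fold changes on this scale understate the change of low genes. Length trends were removed per library by lowess (span 0.3). edgeR 4.0.16 and DESeq2 1.42.0 were run on the recovered reads in R 4.3.3. Annotation was GENCODE M21, and shared stretches are 50-base words of a gene's exons found in another gene's exons. Exact permutation tests used all 11440 assignments. Tumours are independent according to the design text; the spread between libraries is what the p-values measure. The members and lists were chosen with earlier results of these data known, and the subunit classes after values were seen. Genes named are the 10 members with the smallest p, the 3 highest and 3 lowest of each subunit per kb, members of known role, those called in the authors' table, and 2 of each other list; Mrps6, Mrps2, Mrps34, Mrpl16, Mrpl17, Mrpl38, Mrpl46, Mrpl57 and the genes with divergent starts were chosen after their values were seen. Batches could not be examined because the table does not say which label belongs to which library.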

Additional observations from a re-analysis of the deposited data

Results flagged for a closer look

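Of 90 sets of values in 1 group, for the members described or for all members summed, 11 had a single library far from the rest by Dixon's test. Chance flags about 1 set in 20. Library 16 (H3.3K27M) stood above the other H3.3K27M libraries in Mrpl10, with 2271 normalized counts, in Mrpl45, with 2682, in Mrps2, with 3179, and in Mrps5, with 2813. Library 8 (H3.3WT), the shallowest, stood above the other H3.3WT libraries in Mrpl17, with 4984, in Mrpl28, with 6058, in Mrpl38, with 3520, in Mrpl33, with 4012, in Mrps18a, with 3154, and in Mrps18c, with 1756. Library 9 (H3.3WT) stood above the others in Mrpl19, with 1249.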

How the results depend on the processing

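The count of members lower at an unadjusted p under 0.05, 17 as reported, where 6.61% of all genes were lower, was 35 with voom and quality weights (10.9% of all genes), 8 with the exon length trend removed (4.76%), 8 with the blood marker score as covariate (3.6%), 4 without libraries 6 and 8 (3.72%), 10 with the transcript length trend removed (4.11%) and 2 with the coding length trend removed (3.92%). Under the last 2 the higher count was 1, against 4.42% and 5.23% of all genes. Those 2 alternatives were added after the data were seen. Without 1 library at a time it ran from 5 to 23 (4.4 to 8.34% of all genes), the count past the adjusted threshold stayed 0, the higher count stayed 0, the median log2 fold change ran from -0.300 to -0.174 and its difference from all genes from -0.306 to -0.174. With the transcript length trend removed the median was -0.002 and the difference -0.006. Over all members, 35 changed sign with the transcript length trend removed, 26 with exon length, 24 with coding length, 7 without libraries 6 and 8, 4 with the blood score and at most 2 under each other alternative that kept all libraries. Among the members described, Mrps36 changed sign with the blood score, to 0.015, without libraries 6 and 8, to 0.017, and with exon, coding or transcript length removed, to 0.285, 0.307 and 0.348; Mrps5 to -0.042 with the blood score, -0.034 with voom, -0.002 with the neuron score, -0.039 with GC content removed, -0.101 with exon length and -0.131 with transcript length removed; Mrpl45 and Mrpl23 without libraries 6 and 8, to 0.071 and -0.021. With coding length removed Mrpl3 was at 0.012, Mrpl10 at 0.033, Mrpl44 at 0.008, Mrpl45 at 0.064, Mrps18c at 0.037, Mrpl33 at 0.088 and Mrps7 at 0.002. With exon length removed Mrpl46 was at 0.028, Mrps12 was at 0.059, Mrps28 at 0.011, Mrpl45 at 0.112, Mrpl44 at 0.210, Mrpl10 at 0.171, Mrps7 at 0.064 and Mrps18c at 0.130. With transcript length removed Mrpl38 was at 0.054, Mrpl46 at 0.005, Mrps18c was at 0.175, Mrps18a at 0.145, Mrps12 at 0.025, Mrpl44 at 0.162, Mrpl10 at 0.077, Mrps15 at 0.044, Mrpl33 at 0.111, Mrpl19 at -0.102, Mrps22 at 0.097 and Mrpl45 at 0.029. Mrps34 was at -0.001 with edgeR, -0.002 with DESeq2, -0.034 with voom and -0.002 with upper quartile scaling. Without 1 library at a time Mrps34 ran from -0.036 to 0.086, Mrpl3 from -0.172 to 0.010, Mrpl45 from -0.144 to 0.035, Mrps36 from -0.144 to 0.002 and Mrps5 from -0.091 to 0.070. Beyond the removal of the trends itself, the cause was not tested. No paired analysis was possible because the columns carry no replicate numbers and the table does not say which label belongs to which library. Low genes are known least well in library 8.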
